A study of Rattus norvegicus with 6 samples.

Results

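Atp1b1 and Fxyd1 encode accessory subunits of the sodium pump, and they were followed here in rat hearts after 7 days of ISO or saline. The genes were taken by symbol from the deposited count table, in which each has a single row, so they make up 2 of 32883 rows with a gene name. Atp1b1 is listed as ENSRNOG00000002934 and Fxyd1 as ENSRNOG00000021079. The animals were male Sprague–Dawley rats, labelled wild type, 8 weeks old and weighing 250 to 300 g. In the ISO group 3 rats were injected under the skin at 1.5 mg/kg/day, and in the saline group 3 rats received the vehicle in equal volume. The labels do not spell out ISO, which was taken to mean isoproterenol, a drug that activates beta-adrenergic receptors. Each library is the heart RNA of 1 rat, and the sources used here do not say which part of the heart was sampled. The study concerns hypertrophy and fibrosis of the heart, and ISO against saline is its only comparison.

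The sodium pump, or Na,K-ATPase, sits in the surface membrane of the heart muscle cell, moves sodium out and potassium in, and so sets the sodium gradient that drives calcium export by the sodium-calcium exchanger. Its alpha subunit carries out transport and ATP hydrolysis, and its beta subunit, of which Atp1b1 encodes the main cardiac form, is needed for folding and delivery of the alpha subunit to the membrane. Fxyd1 encodes phospholemman, a small membrane protein that restrains the pump and is a major target of protein kinase A during beta-adrenergic stimulation, when its phosphorylation relieves that restraint. RNA counts give transcript levels of these genes and do not show phosphorylation or pump activity.

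The libraries held 14880391 to 17299589 counts, and every library had over 2000 reads of each of the 2 genes. Levels are given as CPM, counts per 1000000 reads after scaling of the libraries by the trimmed mean of M values (TMM), and they are compared between libraries and not between genes, because gene lengths were not used. Of 12 cardiomyocyte markers, 11 were found in the table under their symbols, and their summed level was 59459 to 72213 CPM in saline and 41614 to 61243 CPM in ISO. None of these 11 was called by edgeR, which called 2.97% of all tested genes. An unadjusted p under 0.05 was reached by 3 of the 11, against 22.9% of all tested genes. DESeq2 called 3, against 10.6% of the genes it gave an adjusted p, and voom 0, against 2.39%. ISO replicate 1 stood apart in holding atrial RNA, with 5 atrial markers summing to 189 CPM against 2.22 to 4.18 CPM in the other libraries. Saline replicate 2 held the most red cell RNA, at 10781 CPM over 5 markers, against 1604 to 5160 CPM elsewhere. It also had the largest share of counts from mitochondrial genes. That share was 20.9%, 28.8% and 26.2% in saline replicates 1 to 3 and 22.6% to 22.9% in ISO.

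Neither gene differed between ISO and saline hearts beyond the spread between rats. The mean level of Atp1b1 was 339 ± 17.2 CPM after ISO against 360 ± 22.8 CPM after saline, and that of Fxyd1 was 204 ± 51.7 CPM against 186 ± 43.0 CPM (SD, n = 3 each). By edgeR's quasi-likelihood test, 0 of the 2 genes passed an adjusted p of 0.05, where 2.97% of 13766 tested genes did. Neither reached an unadjusted p of 0.05, which 22.9% of all tested genes did. Neither DESeq2, which called 10.6% of the genes it gave an adjusted p, nor voom, which called 2.39%, called either gene. The rule stated by the series, a log2 fold change over 0.5 in size with an unadjusted p under 0.05, took neither gene and 13.2% of all tested genes with edgeR's p. The groups overlapped for both genes, whereas 28.8% of tested genes had groups that did not overlap.

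In saline replicates 1 to 3 the level of Atp1b1 was 353, 386 and 342 CPM, and in ISO replicates 1 to 3 it was 336, 324 and 358 CPM. The highest value was in saline replicate 2 and the lowest in ISO replicate 2, with ISO replicate 3 above 2 of the 3 saline libraries. The log2 fold change of ISO over saline was −0.09 (SE 0.11, edgeR adjusted p = 0.681). Its 95% interval ran from −0.34 to 0.17, or from 0.79-fold to 1.12-fold. Within a group the highest library was only 1.13-fold above the lowest in saline and 1.10-fold in ISO. The SD of log2 CPM within groups was 0.082, and 12.0% of the 1376 tested genes with at least 100 CPM had a smaller one.

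Fxyd1 varied far more between rats of the same group. Its level was 217, 137 and 205 CPM in saline and 200.3, 258 and 155 CPM in ISO, in the order of the replicate numbers. Saline replicate 2 was the lowest library and ISO replicate 2 the highest, while the 2 other saline libraries lay above the 2 other ISO libraries. The log2 fold change was 0.13 (SE 0.22, edgeR adjusted p = 0.773), with a 95% interval from −0.38 to 0.65, or from 0.77-fold to 1.57-fold. Within a group the highest library was 1.58-fold above the lowest in saline and 1.67-fold in ISO. The SD of log2 CPM within groups was 0.36, and 92.9% of the genes with at least 100 CPM had a smaller one, against a median of 0.16 for those genes. The sign of the fold change followed single libraries, at −0.05 without saline replicate 2 and −0.07 without ISO replicate 2. Without ISO replicate 1, the library with atrial RNA, Fxyd1 stood at 0.14 and Atp1b1 at −0.09. The order of libraries within each group was not particular to Fxyd1. The summed cardiomyocyte markers had the same order, at 72213, 59459 and 66997 CPM in saline and 50174, 61243 and 41614 CPM in ISO.

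**Figure D1:**
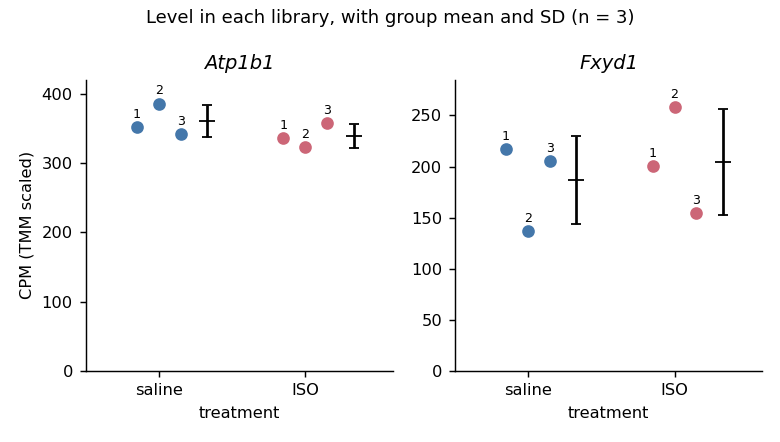
TMM-scaled CPM of Atp1b1 and Fxyd1 in each library (points, numbered by replicate), with the group mean and SD (black, n = 3) on linear axes that start at 0. The groups overlap for both genes, and Fxyd1 is more scattered within each group than Atp1b1.

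Read ratios within a library do not depend on scaling. Fxyd1 per Atp1b1 read was 0.615, 0.356 and 0.600 in saline replicates 1 to 3 and 0.596, 0.796 and 0.432 in ISO replicates 1 to 3. Saline replicate 2 had the lowest ratio and ISO replicate 2 the highest, and the groups overlapped. The mean log2 ratio was −0.76 ± 0.44 in ISO against −0.98 ± 0.45 in saline, a difference of 0.22 (2-sided exact permutation p = 0.7). The smallest p that 3 against 3 allows is 0.1.

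The 2 genes were also set against heart muscle RNA, a reference added after the data were seen. In bulk tissue, fewer cells of a type and less RNA per cell cannot be told apart, and the 11 cardiomyocyte markers had a median log2 fold change of −0.34. Per 1000 reads of the 11 cardiomyocyte markers, Fxyd1 had 3.00, 2.31 and 3.07 reads in saline and 3.99, 4.21 and 3.72 in ISO. All 3 ISO libraries were above the saline libraries, the mean log2 ratio was 0.52 higher (exact permutation p = 0.1), and the SD of the log2 ratio was 0.090 over the ISO and 0.23 over the saline libraries. In CPM the groups of Fxyd1 overlapped, at a log2 fold change of 0.13, and 28.8% of tested genes had groups that did not overlap. That share was not computed for ratios to the markers. The markers Myh6 and Atp2a2 had much of the sum. Their log2 fold changes of ISO over saline were −0.57 and −0.71 (edgeR adjusted p = 0.195 and 0.0655, DESeq2 adjusted p = 0.0380 and 1.19e-05). Without them Fxyd1 had 5.89, 4.46 and 5.82 reads per 1000 in saline and 6.80, 7.06 and 6.25 in ISO. The groups still did not overlap, and the log2 difference was 0.32 (exact permutation p = 0.1), or 0.19 without saline replicate 2 (exact permutation p = 0.2). For Atp1b1 the groups overlapped on both references, with log2 differences of 0.30 (exact permutation p = 0.2) and 0.11 (exact permutation p = 0.7). The first of these lay between 0.13 without ISO replicate 3 and 0.48 without ISO replicate 2, and the second between −0.07 and 0.29 without the same libraries. Adjusted over all 5 ratios computed, the exact permutation p was 0.25 for both ratios of Fxyd1 to the markers. The difference between the 2 genes in this respect is the ratio of Fxyd1 to Atp1b1 above, whose groups overlapped.

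**Figure D2:**
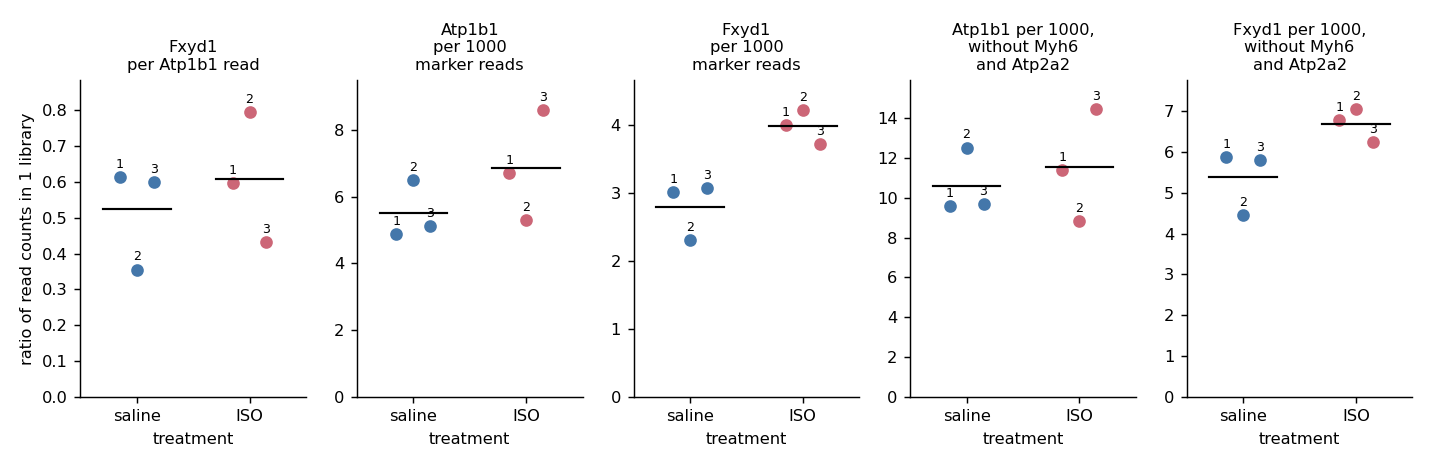
Ratio of read counts within each library (points, numbered by replicate) with group means as bars (n = 3), for Fxyd1 per Atp1b1 read and for each gene per 1000 reads of the cardiomyocyte markers, with all 11 markers or without Myh6 and Atp2a2, on linear axes from 0. The ISO libraries lie above the saline libraries for Fxyd1 per 1000 marker reads on both references, and the groups overlap in the other panels.

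Likeness was measured as the root mean square difference between 2 genes' log2 CPM after taking off each gene's mean, over the 6 libraries and among genes with at least 10 CPM. Fxyd1 differed from Atp1b1 by 0.38, and of the other 8575 genes 7518 were closer to Atp1b1 and 4892 were closer to Fxyd1. The median difference over genes was 0.21 from Atp1b1 and 0.36 from Fxyd1. Saline replicate 2 was the highest library for Atp1b1 and the lowest for Fxyd1, and ISO replicate 2 the reverse.

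The genes most like Atp1b1 were Erlec1 (0.024), Rnf150 (0.028), Atp6v0e1 (0.030), Zcrb1 (0.032) and Kpnb1 (0.035). Erlec1 encodes a lectin of the endoplasmic reticulum, Atp6v0e1 a subunit of the vacuolar proton pump and Kpnb1 the nuclear import receptor importin beta. Their log2 fold changes of ISO over saline lay between −0.14 and −0.03, with edgeR adjusted p of 0.462 to 0.873. They were chosen for sharing the near flat profile of Atp1b1 over these libraries, so the likeness rests on small deviations.

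The genes most like Fxyd1 were Sts (0.041), Esrra (0.044), Bckdha (0.055), Mrps7 (0.057) and Nudt8 (0.063). Esrra encodes a nuclear receptor that drives genes of oxidative metabolism, Bckdha a subunit of the mitochondrial enzyme complex that breaks down branched-chain amino acids, and Mrps7 a mitochondrial ribosomal protein. Esrra stood at 145, 86.9 and 134 CPM in saline and at 123, 161 and 95.8 CPM in ISO. Its lowest and highest libraries were those of Fxyd1, but the 5 genes were chosen for likeness over these same 6 libraries. The log2 fold changes of the 5 lay between 0.05 and 0.18, with edgeR adjusted p of 0.713 to 0.920. The red cell marker sum was 5160, 10781 and 4322 CPM in saline replicates 1 to 3 and 4287, 5041 and 1604 CPM in ISO replicates 1 to 3. It was highest in saline replicate 2, where Fxyd1 was lowest, and lowest in ISO replicate 3, the second lowest library for Fxyd1. In ISO replicate 2, where Fxyd1 was highest, the sum lay between these extremes. The part of red cell RNA in the level of Fxyd1 was not tested.

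**Figure D3:**
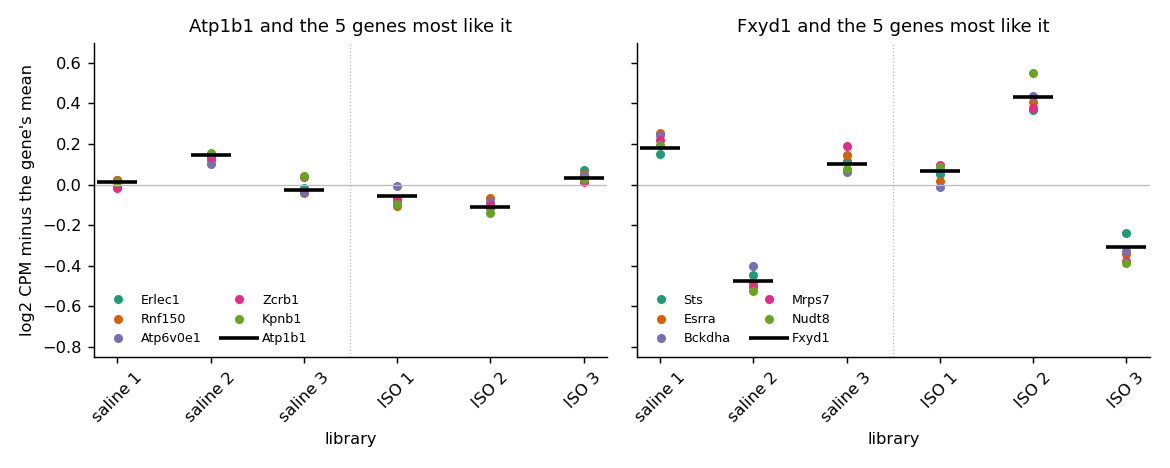
Log2 CPM minus the gene's own mean over 6 libraries, for Atp1b1 (left, black bars) and Fxyd1 (right, black bars) with the 5 genes most like each (coloured points), chosen by the root mean square difference. Fxyd1 is lowest in saline replicate 2 and highest in ISO replicate 2, and Atp1b1 moves little and in the opposite direction in those libraries.

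Among the relatives of the 2 genes, the other beta subunits were also within the spread. Atp1b3 gave −0.04 (SE 0.16) and Atp1b2 −0.19 (SE 0.19), while Atp1b4 had too few reads for a test. Without scaling, Atp1b1 stood at 0.02 and Atp1b3 at 0.07, so the sign of these small values depends on the scaling.

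In the FXYD family, whose members modulate the pump in different tissues, 6 of 7 genes were tested and edgeR called none. At an unadjusted p under 0.05 there were 3 of 6, against 22.9% of all tested genes. DESeq2 called 2, against 10.6% of the genes it gave an adjusted p, and voom 0, against 2.39%. Fxyd6 stood at 22.9 CPM in saline and 34.8 CPM in ISO with no overlap between the groups, and its log2 fold change was 0.60 (SE 0.15, edgeR adjusted p = 0.0699, DESeq2 adjusted p = 0.0158). Of the 6 edgeR fits that left out 1 library, 1 called it, the fit without ISO replicate 2 (0.72, adjusted p = 0.0332), and the others gave adjusted p of 0.137 to 0.207. Fxyd5, also named after its values were seen, gave 0.63 (SE 0.23, edgeR adjusted p = 0.158, DESeq2 adjusted p = 0.0921). Fxyd2, known from the kidney pump and named after its values were seen, gave 0.92 (SE 0.28, edgeR adjusted p = 0.103, DESeq2 adjusted p = 0.0243), with overlapping groups. The median over the 6 tested genes was 0.55, against 0.02 over all tested genes. It includes Fxyd7 (0.50, SE 0.38) and Fxyd3, with means of 1.03 and 1.54 CPM in saline and 1.46 and 1.51 CPM in ISO. Of the 6, the log2 fold changes nearest 0 were those of Fxyd3 (−0.03, SE 0.37) and Fxyd1.

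Markers of other cell types were counted in the same hearts. Of 9 fibroblast markers, edgeR called 2 higher and none lower, with a summed level of 5334 to 5927 CPM in saline and 10316 to 20354 CPM in ISO. Of 7 macrophage markers it called 4 higher and none lower, at 298 to 375 CPM in saline and 701 to 1662 CPM in ISO. Over all tested genes, edgeR called 1.47% higher and 1.50% lower. An unadjusted p under 0.05 was reached by all 9 fibroblast and all 7 macrophage markers, against 22.9% of all tested genes. DESeq2 called 7 fibroblast and 7 macrophage markers, against 10.6% of the genes it gave an adjusted p. Voom called 2 and 3 of them, against 2.39% of all tested genes. EdgeR called none of 6 endothelial, 7 smooth muscle and pericyte or 5 red cell markers, whose median log2 fold changes were −0.00011, 0.10 and −0.85. At an unadjusted p under 0.05 there were 1, 2 and 1 of them, and DESeq2 called 1, 1 and 0. No macrophage or fibroblast marker was at 0. The part of these cells in the levels of the FXYD genes was not tested.

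**Figure D4:**
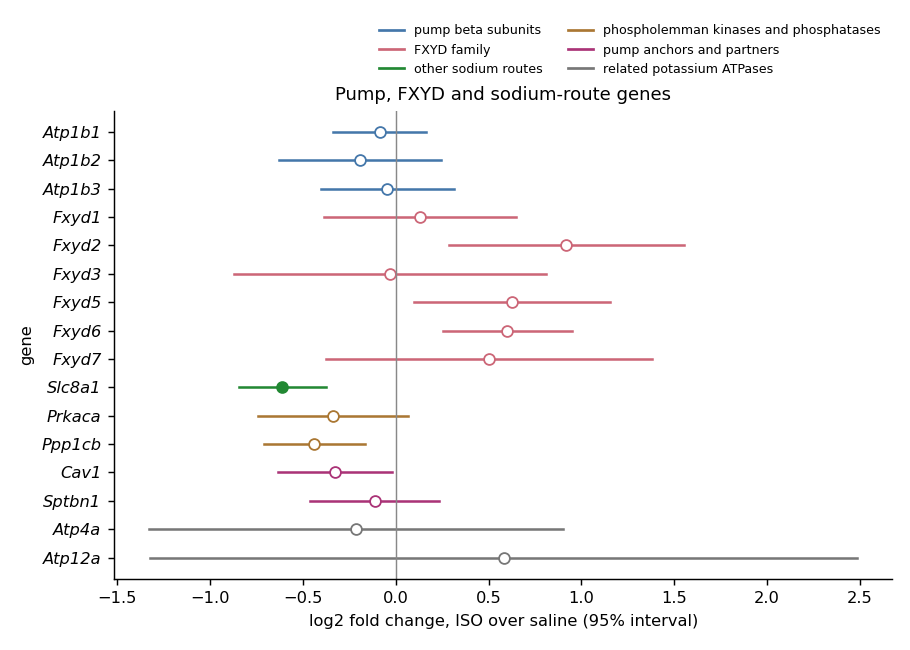
Log2 fold change of ISO over saline with its 95% interval for the tested pump beta subunit and FXYD genes and for the named genes of the other lists, coloured by list, where a filled point is a gene called by edgeR. Slc8a1 is the only filled point, Atp1b1 has a narrow interval that includes 0, and the interval of Fxyd1 is wider.

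Over 6 lists of pump, sodium-route and partner genes, 43 genes other than Atp1b1 and Fxyd1 were found and 37 were tested. None was called higher and 1 was called lower by edgeR, where 1.47% and 1.50% of all tested genes were called, and 36 were not called. An unadjusted p under 0.05 was reached by 4 higher and 6 lower genes of the 37, a share near the 22.9% over all tested genes. DESeq2, which did not give all 37 an adjusted p, called 2 higher and 2 lower, against 10.6% of the genes it did. Voom called 0 higher and 1 lower, against 2.39% of all tested genes. The median log2 fold change was −0.08 against 0.02 over all tested genes. Of the 11 tested genes of other sodium routes, edgeR called 1 lower and 10 not. An unadjusted p under 0.05 was reached by 4 of the 11, against 22.9% of all tested genes. DESeq2 and voom called 1 each, against the same 10.6% and 2.39%, and the median log2 fold change was −0.29 against 0.02. The called gene was Slc8a1, the sodium-calcium exchanger that uses the sodium gradient set by the pump. It fell from 143 ± 6.67 to 93.4 ± 6.19 CPM, at −0.61 (SE 0.10, edgeR adjusted p = 0.0255, DESeq2 adjusted p = 1.69e-05, voom adjusted p = 0.0270). By edgeR, Slc8a1 no longer passed when saline replicate 1 (adjusted p = 0.108), 2 (0.0807) or 3 (0.112) or ISO replicate 1 (0.0999) was left out. Over the 6 fits that left out 1 library, its log2 fold change lay between −0.65 and −0.56, and 2 of these fits called it. Its 3 ISO libraries, at 95.8, 98.1 and 86.4 CPM, lay below the saline libraries at 149.6, 142 and 136 CPM. The 11 cardiomyocyte markers had a median log2 fold change of −0.34. The part of heart muscle RNA in the level of Slc8a1 was not tested.

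Genes of the enzymes that add and remove phosphate on phospholemman, together with a phosphatase inhibitor, had no edgeR call among 10 tested. At an unadjusted p under 0.05 there were 2 of the 10, against 22.9% of all tested genes. DESeq2 called 1, against 10.6% of the genes it gave an adjusted p, and voom 0, against 2.39%. Prkaca, the catalytic subunit of protein kinase A, stood at 271 CPM in saline and 214 CPM in ISO, at −0.34 (SE 0.18, edgeR adjusted p = 0.289). Ppp1cb, a catalytic subunit of protein phosphatase 1, gave −0.44 (SE 0.12, edgeR adjusted p = 0.0790, DESeq2 adjusted p = 0.00547). Genes that anchor the pump or share its membrane domains had no edgeR call among 7 tested, and none by DESeq2 or voom. Of the 7, 1 had an unadjusted p under 0.05, against the same 22.9%. Sptbn1, a beta spectrin, and Cav1, caveolin 1, gave −0.11 and −0.33. The related potassium ATPases had no edgeR or voom call among 2 tested, and none at an unadjusted p under 0.05. DESeq2 did not call Atp4a and gave Atp12a no adjusted p. The group means of Atp4a and Atp12a were all under 2 CPM. Of the 6 genes left untested for low counts, Nkain3 had no read in any library, which allows up to 0.175 to 0.204 CPM per library.

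Neighbouring genes with a row in the deposited counts had few reads beside the 2 genes. In the RefSeq annotation of GRCr8, used here for neighbours only, the model of Nme7 overlaps that of Atp1b1, and Nme7 had 55 to 98 reads per library. On the other side of Atp1b1, LOC120096205 had no row under that symbol, so its reads are not known. Fxyd1 lies between Fxyd7 and Lgi4, which had 13 to 29 and 130 to 207 reads per library and models that do not overlap it.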

How the data were processed

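The members and gene lists were chosen with earlier results of these data known. The deposited table holds raw read counts per gene, with 1 column per library; the authors aligned 150 bp paired reads with HISAT2 and counted them with featureCounts, per the series description. Tool versions and the strand setting were not given in the sources used here. Per the submitters' processing notes the build was mm10, of mouse, while the identifiers are rat Ensembl genes. Without known strand, reads of overlapping genes cannot be told apart. The 1006 rows without a gene name, 0.981% to 1.32% of counts, entered neither library sizes nor tests, and of rows sharing a symbol the one with the most counts kept it. No library pair was alike within sampling noise.

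Differences were tested by the quasi-likelihood F test of edgeR 4.0.16, run in R 4.3.3, with TMM scaling and edgeR's default filter, which left 13766 genes. Benjamini-Hochberg adjustment covered all of them, and calls needed an adjusted p under 0.05. The SE is the log2 fold change divided by the square root of F. Log2 CPM for likeness used a prior count of 2. Ratios used raw counts. Alternatives were DESeq2 size factors, no scaling, no filter, DESeq2 1.42.0, voom (limma 3.58.1), the replicate number as a block, the series' rule (log2 fold change over 0.5 in size, unadjusted p under 0.05) and each library left out, and for ratios 0.5 counts added to both genes. Fits without mitochondrial or red cell genes were chosen after seeing the data. The tests were checked on simulated counts.

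Genes were named by rule: both members, the called genes of each list or otherwise its 2 most abundant, the 5 genes most like each member, and the neighbours. Others are marked as named after their values were seen, apart from Atp1b2, Atp1b4 and Fxyd3, named to complete their families, Nkain3, and the markers Myh6 and Atp2a2. Cell type markers are given as sums and counts, apart from the log2 fold changes of Myh6 and Atp2a2. Some genes and comparisons of the design are not reported here.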

Additional observations from a re-analysis of the deposited data

How the results depend on the processing

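Neither Atp1b1 nor Fxyd1 was called under any of the 15 alternatives, with adjusted p by the tool used from 0.603 to 0.923 for Atp1b1 and from 0.458 to 0.929 for Fxyd1. Atp1b1 changed sign without scaling (0.024), where the median of all genes moved from 0.02 to 0.13, and lay between −0.13 and −0.04 when single libraries were left out. Fxyd1 lay between −0.074 and 0.30 in those fits and was below 0 without saline replicate 2 (−0.050) or ISO replicate 2 (−0.074). The log2 difference of Fxyd1 to Atp1b1 lay between −0.042 and 0.44, and changed sign without saline replicate 2 (−0.042) or ISO replicate 2 (−0.001).

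Genes called over the whole table went from 203 higher and 206 lower to 280 and 123 without scaling, 322 and 272 without the filter, 752 and 653 with DESeq2, and 1193 and 619 by the series' rule. Leaving out single libraries gave 6 to 492 higher and 5 to 346 lower. Pathway genes called were 0 higher and 1 lower, and 2 and 2 with DESeq2, 4 and 1 by the series' rule, and 0 to 3 higher (3 without ISO replicate 2) and 0 to 1 lower without single libraries. Small uncalled values changed sign for Atp1b3 (0.073 without scaling, −0.21 to 0.061 without single libraries), Sptbn1 (−0.24 to 0.0052), Atp4a (−0.69 to 0.059) and Atp1b1 relative to the cardiomyocyte markers without Myh6 and Atp2a2 (−0.066 to 0.29, below 0 without ISO replicate 3). The causes were not tested.

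Deviations of same-numbered libraries correlated at 0.087, −0.099 and 0.018 across genes, and those of differently numbered libraries at −0.15 to 0.12. From 3 libraries per group, these values cannot show whether the replicate numbers pair the rats. With the number as a replicate block, 15 genes were called higher and 13 lower, none of them a pathway gene (0 and 0), and Atp1b1 stood at −0.09 and Fxyd1 at 0.12. Both genes had over 2000 reads in each library.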
